A study of Mus musculus with 20 samples.

Results

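Olig2, Sox11, Sox4, Nfib, Nefm, Dpysl3, Syt11 and Scn3a were followed across mouse embryonic stem cells that lack TRIM71 or carry its R595H form. They are 4 transcription factor genes of neural cells and 4 genes of the neuronal cytoskeleton, vesicles and membrane. They were chosen with earlier results of these data known, and were taken by symbol from a table of 13283 genes. Each of the 8 was found in it. TRIM71 is an RNA-binding protein of pluripotent cells that lowers the stability or translation of its target mRNAs. The series is named for a comparison of its deletion with its point change, and for a state in which cells are poised toward nerve cells. Poly(A) RNA was sequenced in bulk from cells grown in FCS, LIF and 2i, a medium whose inhibitors hold stem cells in naive pluripotency.

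The 20 libraries form 5 genotype groups, all labelled C57BL/6 and male. Trim71-cond cells (4 libraries, genotype given as Trimfl/fl) carry floxed Trim71 alleles and served as the controls of Trim71-KO cells (4 libraries), in which the gene is deleted. Both groups have libraries coded 1A, 2B, 3A and 3B, and no clone is named for either, so nothing in the labels says that these libraries came from separate cultures and their p-values measure only the spread between them. The other 3 groups are clones: WT (C16, C7 and C5), R595H/+ with the change on one allele (C15, C21 and C23), and R595H/R595H with it on both (C14, C20 and C24). One clone of each genotype (C16, C15 and C14) has a library with each of the title tags 20/1 and 5/2, taken here as dates of an unstated step, and its libraries were averaged, so each clonal group has n = 3 clones. How the alleles were made or deleted is not given in the sources used here.

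OLIG2 is a basic helix-loop-helix factor of motor neuron and oligodendrocyte progenitors. SOX4 and SOX11 are closely related SOX factors that act in newborn neurons, and NFIB is a DNA-binding factor of glial and neuronal maturation in the brain. NEFM is the medium subunit of neurofilaments, the intermediate filaments of axons, and DPYSL3 is a collapsin response mediator protein that acts on the growth cone cytoskeleton. SYT11 is a synaptotagmin of vesicle trafficking, and SCN3A is the pore subunit of a voltage-gated sodium channel prominent in the embryonic brain. In naive stem cells such genes are mostly kept at low levels, in part by repressors such as REST.

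Values are on the log2 scale on which they were deposited, so 1 unit is a doubling. Base 2 is inferred from the tool named by the submitters and is not stated in the table. A level here is comparable between libraries for a gene and not between genes, since it is not divided by gene length. A gene was called higher or lower at a Benjamini-Hochberg adjusted p under 0.05 in limma, over the genes whose mean reached 3.32, 9580 in the conditional and 9587 in the clonal comparisons. All 8 genes passed that filter in every comparison. Because RNA was pooled over many cells, a higher level in each cell and a larger share of cells expressing the gene cannot be told apart.

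Several measurements of the libraries bear on every value that follows. Trim71 lay between 7.43 and 7.53 in the Trim71-KO libraries and between 8.93 and 9.01 in the Trim71-cond libraries. It lay between 9.48 and 9.54 in WT, 9.51 and 9.63 in R595H/+, and 10.00 and 10.18 in R595H/R595H libraries. The mean of the 2 libraries coded 1A differed from the mean of the other 6 with an SD across 9588 genes of 0.0297, against 0.0956 to 0.109 for the other codes. Likewise the 3 libraries dated 20/1 differed from the other 9 with an SD of 0.0286, against 0.0889 and 0.112 for 2 other sets of 3 libraries with 1 clone per genotype. Whether the table was adjusted between batches is not given in the sources used here. If it was, the spread behind the p-values is not that of unadjusted libraries. The libraries of R595H/R595H clone C14 from the 2 dates differed with an SD of 0.0331, against 0.151 for WT clone C16 and 0.148 for R595H/+ clone C15. Mean Y-linked level (Ddx3y, Eif2s3y, Kdm5d and Uty) was 5.65 to 6.20 in the conditional libraries, and in single clones it ran from 3.72 in R595H/R595H C20 to 6.00 in WT C5, although all are labelled male. Lars2 took 0.334% of the summed linear values in R595H/R595H C20 and 13.2% in C24. Values without code 1A, with libraries dated 5/2 only, or with the Y-linked mean as a covariate are given beside results where they bear on them, and otherwise the part of these differences in the results was not tested.

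All 12 pluripotency markers chosen were in the table, among them Pou5f1, Sox2 and Nanog, and their summed level ran from 13.2 to 13.6 over all groups. It was 13.4 to 13.5 in Trim71-KO and 13.2 to 13.3 in Trim71-cond libraries, which did not overlap. Of 12 glial markers 5 were in the table, and Gfap, Aqp4, Slc1a2, S100b, Mog, Sox10 and Cspg4 were not. Summed glial markers ran from 6.17 to 6.39 in Trim71-cond and from 6.39 to 6.50 in Trim71-KO libraries. The 3 glial markers tested went different ways there, since Aldh1l1 rose by 0.31 (adjusted p = 0.0213), Mbp fell by 0.32 (adjusted p = 0.00638) and Slc1a3 was not called. Endoderm markers, of which 8 of 10 were in the table, summed to 8.33 to 8.47 in R595H/R595H and 7.80 to 8.07 in WT clones. The 3 tested had means in R595H/R595H and WT of 7.59 and 7.01 (Lama1), 5.64 and 5.15 (Col4a2) and 6.33 and 6.15 (Col4a1). Gata4 (0.89 and 0.87), Gata6 (0.05 and 0.04), Sox17 (0.46 and 0.47), Dab2 (2.38 and 2.37) and Pdgfra (2.28 and 2.08) were below the filter, which left Lama1, Col4a2 and Col4a1 as the 3 tested. In Trim71-KO cells 1 of these 3 was called higher and 1 lower, where 9.24% and 9.37% of all tested genes were. Neural crest (5 of 10 in the table), mesoderm (1 of 10), trophectoderm (7 of 10) and fibroblast or feeder markers (3 of 10) were summed likewise. Their sums overlapped between R595H/R595H and WT and between Trim71-KO and Trim71-cond. Of 4 trophectoderm markers tested, 1 was called lower in Trim71-KO and 1 higher in R595H/R595H. Over all tested genes those shares were 9.37% and 2.19%. The part of other cell types in the results was not tested.

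Promoter windows from RefSeq (GRCm38.p6, 250 bases before to 50 after the start of a transcript) were held for 4 of the genes, Olig2, Sox11, Sox4 and Syt11. The windows of the 3 transcription factor genes are shown because Olig2 and Sox11 rose in the Trim71-KO cells whereas Sox4 was not called there and fell in R595H/R595H clones. They are written 5′ to 3′ on the strand of the gene, with CpG dinucleotides in capitals.
Olig2, chr16:91225300-91225599, plus strand: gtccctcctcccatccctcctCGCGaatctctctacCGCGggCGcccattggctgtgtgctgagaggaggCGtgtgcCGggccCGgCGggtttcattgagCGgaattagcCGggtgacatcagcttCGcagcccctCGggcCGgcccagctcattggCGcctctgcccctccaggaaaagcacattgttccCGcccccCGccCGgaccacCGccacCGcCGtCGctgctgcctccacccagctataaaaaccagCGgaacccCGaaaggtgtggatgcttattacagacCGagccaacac
Sox11, chr12:27342669-27342968, minus strand: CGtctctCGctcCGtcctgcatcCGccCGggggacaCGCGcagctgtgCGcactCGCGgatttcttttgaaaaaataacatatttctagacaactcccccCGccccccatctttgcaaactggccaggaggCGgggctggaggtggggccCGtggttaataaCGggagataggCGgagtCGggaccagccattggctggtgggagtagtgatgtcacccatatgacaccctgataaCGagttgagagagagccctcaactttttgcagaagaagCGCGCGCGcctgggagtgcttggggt
Sox4, chr13:28953650-28953949, minus strand: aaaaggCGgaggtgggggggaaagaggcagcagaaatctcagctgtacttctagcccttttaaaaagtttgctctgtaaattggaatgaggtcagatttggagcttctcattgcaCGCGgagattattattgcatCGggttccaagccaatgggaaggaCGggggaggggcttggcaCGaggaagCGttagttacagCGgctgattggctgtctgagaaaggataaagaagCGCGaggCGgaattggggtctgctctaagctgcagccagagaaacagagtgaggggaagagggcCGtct

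The Olig2 window held 25 CpG and the Sox11 window 21, against a median of 21.5 over the 9750 windows of tested genes. The Sox4 window held 12 CpG, and 20.0% of those windows held fewer. The window of Syt11, which was called higher in R595H/R595H clones, held 14 CpG, and 24.6% of those windows held fewer. A GC box (GGGCGG on either strand) was found 2 times each in the Olig2, Sox11 and Syt11 windows and not in that of Sox4. Of the windows of tested genes, 65.3% held that motif. A TATA box (TATAAA on either strand), held by 6.44% of them, was present in the Olig2 window alone among the 4. The left part of the REST site, searched as TTCAGCACC on either strand, was in none of the 4 windows and in 0.328% of those of tested genes. A match is a run of letters and not a bound site.

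In Trim71-KO against Trim71-cond cells, Nfib, Nefm, Olig2 and Sox11 rose and Dpysl3 and Scn3a fell, while Sox4 and Syt11 were not called. The rises ran from 0.43 for Sox11 to 0.87 for Nfib. So 6 of the 8 genes were called, where 18.6% of the 9580 genes tested were called, 9.24% as higher and 9.37% as lower. The 8 were chosen with earlier results of these data known, so their share is no test of neural genes as a class. For 6 of the 8 the ranges of the groups did not overlap (Olig2, Sox11, Sox4, Nfib, Nefm and Dpysl3), as for 20.8% of all tested genes. A neurofilament subunit and 3 transcription factors were higher, and a growth cone gene and a channel gene were lower. Nfib had the 6th largest rise and Dpysl3 the 7th largest fall among the 9580 genes.

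In R595H/R595H against WT clones, Nefm and Syt11 rose and Sox4 fell, so 3 of the 8 were called, where 3.42% of 9587 genes were called, 2.19% as higher and 1.23% as lower. The way the 8 were chosen limits this share as well. Ranges did not overlap for 4 of the 8 (Olig2, Sox4, Nefm and Syt11), against 29.7% of all tested genes. Nefm alone was called in the same direction in both comparisons, and it had the 10th largest rise of the 9587 genes in R595H/R595H clones. In R595H/+ against WT clones, limma called none of the 8 and 0 of 9587 genes (0%), although 734 had an unadjusted p under 0.05. Ranges did not overlap for Olig2, Sox4, Nefm and Dpysl3, which is 4 of the 8, against 12.5% of all tested genes. The comparisons with WT share the 3 WT clones, so their values for the 2 R595H genotypes are not independent. In R595H/R595H against R595H/+ clones none of the 8 was called, where 0.772% of genes were, and ranges did not overlap for 3 of the 8 (Sox4, Nfib and Syt11), against 25.4% of all tested genes.

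**Figure D1:**
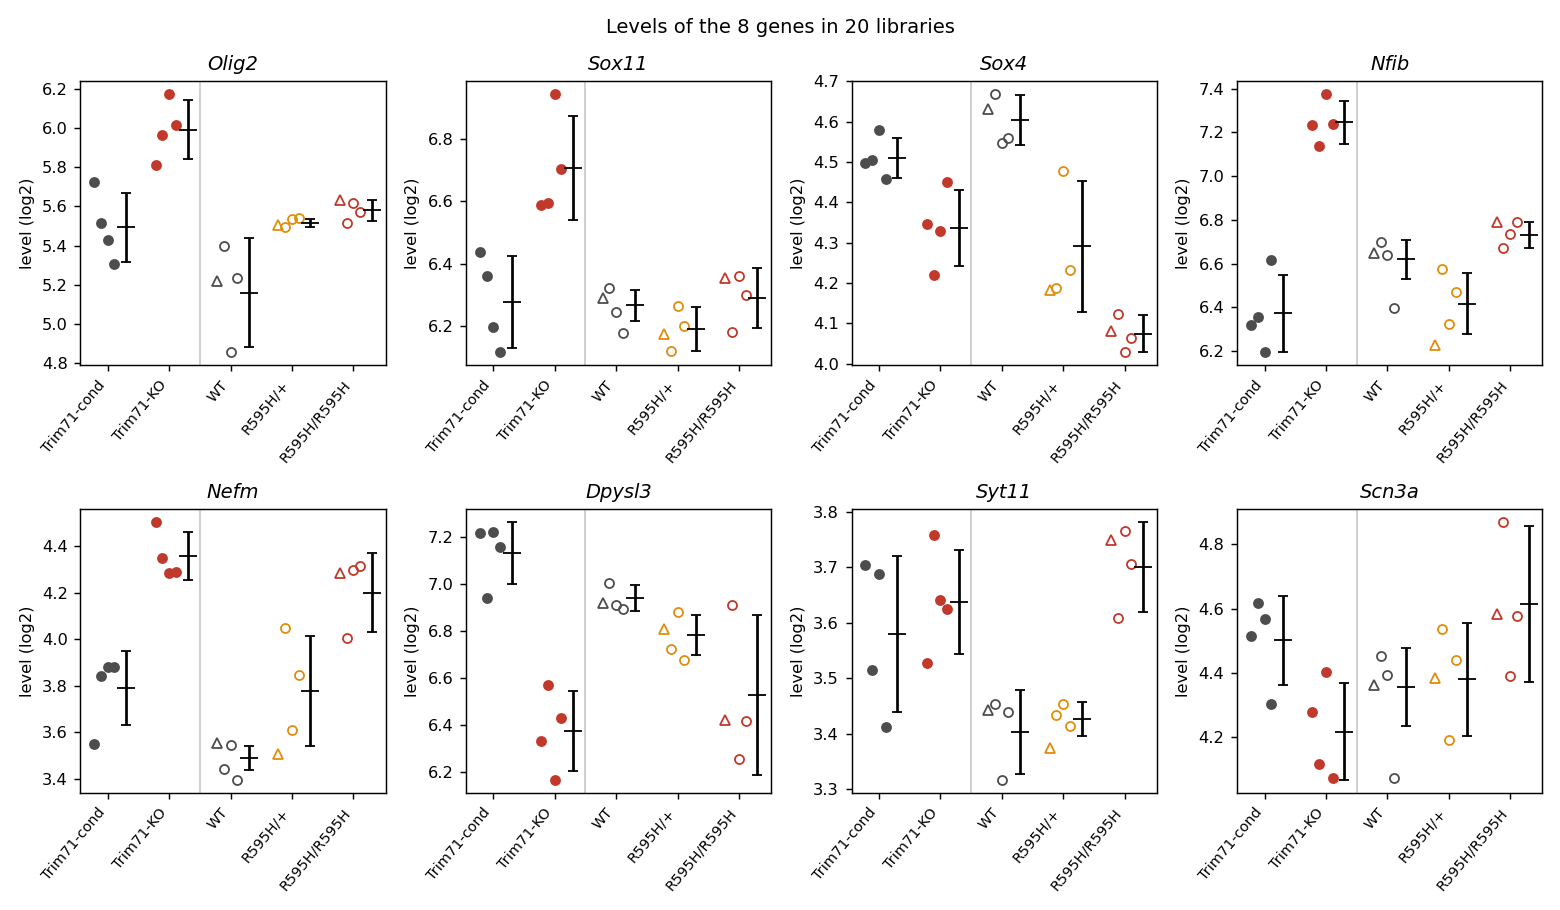
Level (log2, each panel with its own vertical axis) of each gene in the 20 libraries by genotype group. Filled points are conditional libraries, open circles are clonal libraries dated 5/2 and open triangles those dated 20/1; the horizontal dash and bar beside each group are the mean and SD over 4 libraries or over 3 clones. Nfib is highest in the 4 Trim71-KO libraries, and Nefm is high in both Trim71-KO and R595H/R595H.

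Olig2 (ENSMUSG00000039830.9, chr16:91225457-91228677 on GRCm38, plus strand, with up to 2 exons per transcript) stood at 5.72, 5.43, 5.52 and 5.31 in Trim71-cond libraries 1A, 2B, 3A and 3B. The Trim71-KO libraries with the same codes had 5.81, 6.17, 5.97 and 6.02. Each Trim71-KO library was above every Trim71-cond library. The means were 5.99 ± 0.15 (SD, n = 4) and 5.49 ± 0.18 (SD, n = 4), a rise of 0.50 ± 0.10 (SE, 1.41-fold) with a limma adjusted p of 0.00134. Within codes the difference was 0.09 for 1A and 0.75, 0.45 and 0.71 for 2B, 3A and 3B, so the 1A pair showed the smallest difference. Over all tested genes, the deviations of the 2 libraries coded 1A from their group means were opposed (correlation -0.89). Without code 1A in both groups the rise was 0.63 (adjusted p = 5.42e-05).

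In the clones, Olig2 was 5.23, 4.85 and 5.40 in WT C16, C5 and C7, 5.52, 5.49 and 5.53 in R595H/+ C15, C21 and C23, and 5.60, 5.52 and 5.62 in R595H/R595H C14, C20 and C24. Every clone with the R595H change was above every WT clone, and the WT clones had the widest spread (SD 0.28, against 0.021 and 0.054). The difference of R595H/R595H from WT was 0.42 ± 0.12 (SE; adjusted p = 0.0610) and that of R595H/+ 0.36 ± 0.12 (adjusted p = 0.547), neither of them called. When the 12 libraries were fitted singly with a correlation within clones, the R595H/R595H value was 0.42 with an adjusted p of 0.0349. Without WT C5, the lowest clone, the differences from WT were 0.27 (adjusted p = 0.175) for R595H/R595H and 0.20 (adjusted p = 0.721) for R595H/+. Between R595H/R595H and R595H/+ the difference was 0.06, with a 95% confidence interval from -0.18 to 0.31. Olig1, the related factor encoded 41094 bases away, differed by 0.25 ± 0.09 (SE) in Trim71-KO cells (adjusted p = 0.0556) and by 0.10 in R595H/R595H clones (adjusted p = 0.647).

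Sox11 (ENSMUSG00000063632.6, chr12:27334264-27342574, minus strand, 1 exon) had levels of 6.44, 6.20, 6.36 and 6.12 in Trim71-cond libraries 1A, 2B, 3A and 3B and of 6.59, 6.94, 6.60 and 6.70 in Trim71-KO libraries. The groups did not overlap, and Trim71-KO 2B was the highest library. Mean levels were 6.28 ± 0.15 and 6.71 ± 0.17 (SD, n = 4 each). Sox11 rose by 0.43 ± 0.09 (SE, 1.35-fold; adjusted p = 0.00248), with differences of 0.15, 0.75, 0.23 and 0.59 for codes 1A, 2B, 3A and 3B. All 9 clones lay between 6.12 and 6.36, within the range of the Trim71-cond libraries. R595H/R595H clones differed from WT by 0.02, with a 95% confidence interval from -0.16 to 0.20 and an adjusted p of 0.905.

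Sox4 (ENSMUSG00000076431.4, chr13:28948919-28953713, minus strand, 1 exon) was lower in R595H/R595H than in WT clones. WT C16, C5 and C7 had 4.60, 4.55 and 4.67, and R595H/R595H C14, C20 and C24 had 4.07, 4.12 and 4.03. R595H/+ C15, C21 and C23 had 4.21, 4.19 and 4.48, so that every heterozygous clone lay between the WT and R595H/R595H ranges. Sox4 fell by 0.53 ± 0.09 (SE, 1.44-fold) in R595H/R595H against WT clones, from 4.60 ± 0.06 to 4.08 ± 0.05 (SD, n = 3 each; adjusted p = 0.00864). It had the 19th largest fall of the 9587 genes. Without WT C7 the fall was 0.50 and the adjusted p 0.0513, and with the Y-linked mean as a covariate it was 0.60 with an adjusted p of 0.0128. R595H/+ against WT gave -0.31 ± 0.09 (SE; adjusted p = 0.518).

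In the conditional libraries Sox4 had 4.50, 4.58, 4.50 and 4.46 in Trim71-cond 1A, 2B, 3A and 3B, and 4.35, 4.33, 4.22 and 4.45 in Trim71-KO. The ranges touched closely without overlapping, and the difference of -0.17 ± 0.08 (SE) was not called (adjusted p = 0.145). The library kit does not mark strand, and 2616 bases of Sox4, or 54.6% of its exonic length, overlap the antisense gene Gm26735 of GENCODE vM21, so reads from that stretch cannot be told apart. Gm26735 was not in the table used here.

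Nfib (ENSMUSG00000008575.17, chr4:82290173-82705750, minus strand, up to 12 exons) showed the largest difference of the 8 genes in the conditional cells. Levels were 6.32, 6.19, 6.36 and 6.62 in Trim71-cond 1A, 2B, 3A and 3B and 7.24, 7.38, 7.14 and 7.24 in Trim71-KO. The lowest Trim71-KO library was well above the highest Trim71-cond library. The means of 6.37 ± 0.18 and 7.25 ± 0.10 (SD, n = 4 each) gave a rise of 0.87 ± 0.08 (SE, 1.83-fold; adjusted p = 9.27e-07). Each code showed it, at 0.91, 1.18, 0.78 and 0.62 for 1A, 2B, 3A and 3B.

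No such step was seen for Nfib in the clones, where WT C16, C5 and C7 had 6.52, 6.64 and 6.70 and R595H/R595H C14, C20 and C24 had 6.79, 6.67 and 6.74. The groups overlapped, with a difference of 0.11 ± 0.09 (SE), a 95% confidence interval from -0.08 to 0.30 and an adjusted p of 0.504. R595H/+ C15, C21 and C23 had 6.35, 6.58 and 6.33, all below the R595H/R595H clones, and R595H/R595H against R595H/+ gave 0.31 ± 0.09 (SE; adjusted p = 0.0948). Libraries of one clone from the 2 dates differed by -0.25 for WT C16 and by 0.24 for R595H/+ C15, which is about the size of that difference. Of the other NFI factors, Nfia, Nfic and Nfix were in the table but below the filter.

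Nefm (ENSMUSG00000022054.11, chr14:68082590-68124846, minus strand, up to 4 exons) was the gene called as higher in both systems. Trim71-cond libraries 1A, 2B, 3A and 3B had 3.55, 3.88, 3.84 and 3.88, and the Trim71-KO libraries had 4.51, 4.28, 4.35 and 4.29. The groups were well apart, although code 1A held both the lowest Trim71-cond and the highest Trim71-KO library. Opposed deviations of the 2 libraries coded 1A were seen over all tested genes (correlation -0.89) and were not particular to Nefm. Nefm rose by 0.57 ± 0.09 (SE, 1.48-fold) from 3.79 ± 0.16 to 4.36 ± 0.10 (SD, n = 4 each; adjusted p = 0.000227). Without code 1A the rise was 0.44 with an adjusted p of 0.00347.

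WT C16, C5 and C7 had Nefm levels of 3.47, 3.54 and 3.44, against 4.30, 4.005 and 4.30 in R595H/R595H C14, C20 and C24. R595H/+ C15, C21 and C23 had 3.68, 4.05 and 3.61, above the WT clones, with C21 inside the R595H/R595H range. The rise in R595H/R595H over WT was 0.71 ± 0.11 (SE, 1.64-fold; adjusted p = 0.00605), from 3.49 ± 0.05 to 4.20 ± 0.17 (SD, n = 3 each). With libraries dated 5/2 only it was 0.74 (adjusted p = 0.00760), and with the Y-linked mean as a covariate 0.78 (adjusted p = 0.0128). R595H/R595H against R595H/+ gave 0.42 ± 0.11 (SE; adjusted p = 0.0796), and without R595H/+ C21 it was 0.56 with an adjusted p of 0.0436. The 2 libraries of R595H/+ C15 differed by 0.34 between dates.

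Nefl, which encodes the light neurofilament subunit, lies antisense to Nefm and shares 1108 bases with it, 19.2% of the exonic length of Nefm. Reads there cannot be told apart without strand. Nefl differed by 0.15 ± 0.09 (SE; adjusted p = 0.272) in Trim71-KO cells and by 0.19 ± 0.10 (adjusted p = 0.285) in R595H/R595H clones, and was not called. Nefh, the heavy subunit, rose by 0.37 ± 0.09 (SE; adjusted p = 0.00851) in Trim71-KO cells, and its value in R595H/R595H clones was 0.16 (adjusted p = 0.583). Of 5 tested genes of nerve cell intermediate filaments, 2 rose in Trim71-KO and 1 in R595H/R595H, with medians of 0.15 and 0.16 against -0.0028 and -0.0023 over all genes tested, of which 9.24% and 2.19% were called higher.

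Dpysl3 (ENSMUSG00000024501.20, chr18:43320984-43438286, minus strand, up to 14 exons) had 7.22, 7.22, 6.94 and 7.16 in Trim71-cond 1A, 2B, 3A and 3B and 6.33, 6.17, 6.57 and 6.43 in Trim71-KO. All Trim71-KO libraries were below all Trim71-cond libraries. Dpysl3 fell by 0.76 ± 0.09 (SE, 1.69-fold) from 7.13 ± 0.13 to 6.37 ± 0.17 (SD, n = 4 each; adjusted p = 5.94e-06). The differences by code were -0.88, -1.05, -0.37 and -0.73 for 1A, 2B, 3A and 3B.

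Among R595H/R595H clones Dpysl3 was uneven, at 6.42 in C14 and 6.26 in C24 but 6.91 in C20, close to the lower WT clones. WT C16, C5 and C7 had 6.91, 6.91 and 7.01, and R595H/+ C15, C21 and C23 had 6.74, 6.72 and 6.88, all below the WT range. The difference of R595H/R595H from WT was -0.41 ± 0.13 (SE) and not called (adjusted p = 0.0907). Without C20 it was -0.60 with an adjusted p of 0.00415; the result thus depended on that clone. Dpysl2, a second collapsin response mediator, fell in both comparisons, by 0.36 ± 0.10 (SE; adjusted p = 0.0144) in Trim71-KO cells and by 0.51 ± 0.09 (adjusted p = 0.00914) in R595H/R595H clones. These 2 were the family members above the filter, of 5 in the table.

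Syt11 (ENSMUSG00000068923.14, chr3:88744700-88775164, minus strand, up to 5 exons) was near the filter in all groups. Trim71-cond libraries 1A, 2B, 3A and 3B had 3.70, 3.69, 3.52 and 3.41 and Trim71-KO libraries 3.53, 3.64, 3.76 and 3.63, so the groups overlapped. The difference was 0.06 ± 0.09 (SE; adjusted p = 0.680), with a 95% confidence interval from -0.12 to 0.23. In the clones, WT C16, C5 and C7 had 3.44, 3.32 and 3.45, R595H/+ C15, C21 and C23 had 3.39, 3.43 and 3.45, and R595H/R595H C14, C20 and C24 had 3.73, 3.61 and 3.77. The R595H/R595H clones were above all others, and Syt11 rose by 0.30 ± 0.08 (SE, 1.23-fold) over WT with an adjusted p of 0.0489. That call was lost in 12 of 16 alternatives, in which the adjusted p reached 0.221, while the difference stayed between 0.25 and 0.34.

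Scn3a (ENSMUSG00000057182.14, chr2:65457118-65567627, minus strand, up to 27 exons) had 4.52, 4.57, 4.62 and 4.30 in Trim71-cond 1A, 2B, 3A and 3B and 4.28, 4.40, 4.12 and 4.07 in Trim71-KO. The ranges overlapped through Trim71-cond 3B. Scn3a fell by 0.28 ± 0.09 (SE, 1.22-fold; adjusted p = 0.0397), and with the replicate code as a block the adjusted p was 0.0529, so the call was lost. With the labelled day as the block it was 0.0517. The call was lost in 8 of 15 alternatives, with an adjusted p up to 0.119, among them those without Trim71-cond 1A, 2B or 3A and without Trim71-KO 3A or 3B. In the clones the difference had the other sign, 0.26 ± 0.12 (SE; adjusted p = 0.247), with 4.58, 4.87 and 4.39 in R595H/R595H C14, C20 and C24 and 4.22, 4.40 and 4.45 in WT C16, C5 and C7. Without R595H/R595H C20 that difference was 0.13 (adjusted p = 0.545), and the difference between the effects of the deletion and the homozygous change was -0.41 (adjusted p = 0.164). Scn3b, a beta subunit of these channels, rose by 0.44 ± 0.09 (SE; adjusted p = 0.00144) in Trim71-KO cells, and its value in R595H/R595H clones was 0.31 (adjusted p = 0.0626).

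**Figure D2:**
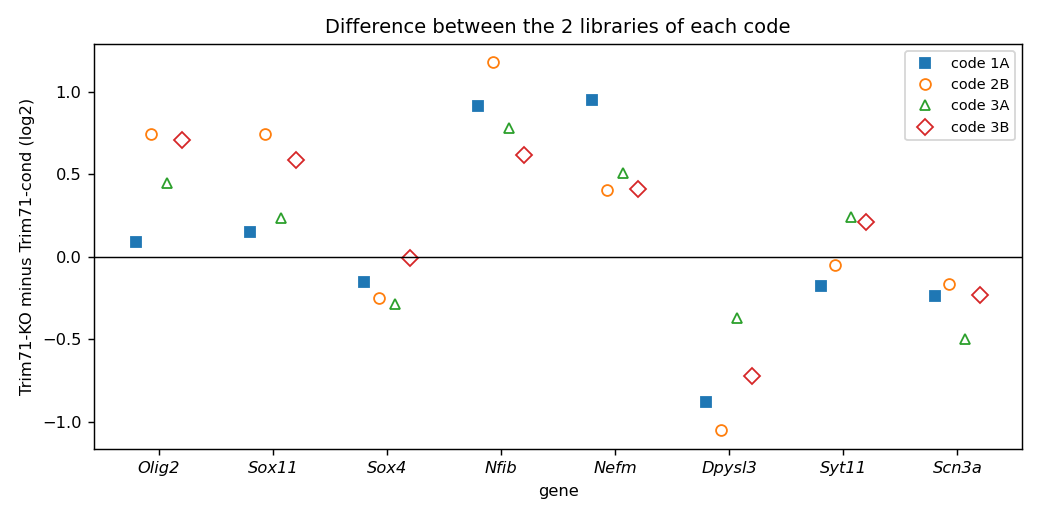
Difference in level (log2, Trim71-KO minus Trim71-cond) between the libraries that share a replicate code, for each gene. All 4 points are above 0 for Olig2, Sox11, Nfib and Nefm and below 0 for Sox4 (not called, -0.0078 for code 3B), Dpysl3 and Scn3a; code 1A gives 0.09 for Olig2 and 0.95 for Nefm.

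Whether a gene responded differently to the deletion and to the homozygous change was tested as a difference of the differences. Nfib was the one gene of the 8 for which it was called, with a Trim71-KO effect larger than the R595H/R595H effect by 0.76 ± 0.13 (SE; adjusted p = 0.00388), where 1.42% of 9585 genes were called, 0.730% as higher and 0.689% as lower. Scn3a, with effects of opposite sign, differed by -0.54 ± 0.16 (adjusted p = 0.0719), and without R595H/R595H C24 by -0.65 (adjusted p = 0.0339). Sox11 differed by 0.41 (adjusted p = 0.0987) and Sox4 by 0.36 (adjusted p = 0.123). The intervals for Nefm (-0.45 to 0.16) and Olig2 (-0.24 to 0.40) spanned 0, as did that of Syt11 (-0.48 to 0.0040). Dpysl3 gave -0.35 with an interval from -0.67 to -0.02 and an adjusted p of 0.246, and without R595H/R595H C20 it was -0.16 (adjusted p = 0.588). Conditional and clonal cells can also differ in origin and handling, and these cannot be told apart from genotype.

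**Figure D3:**
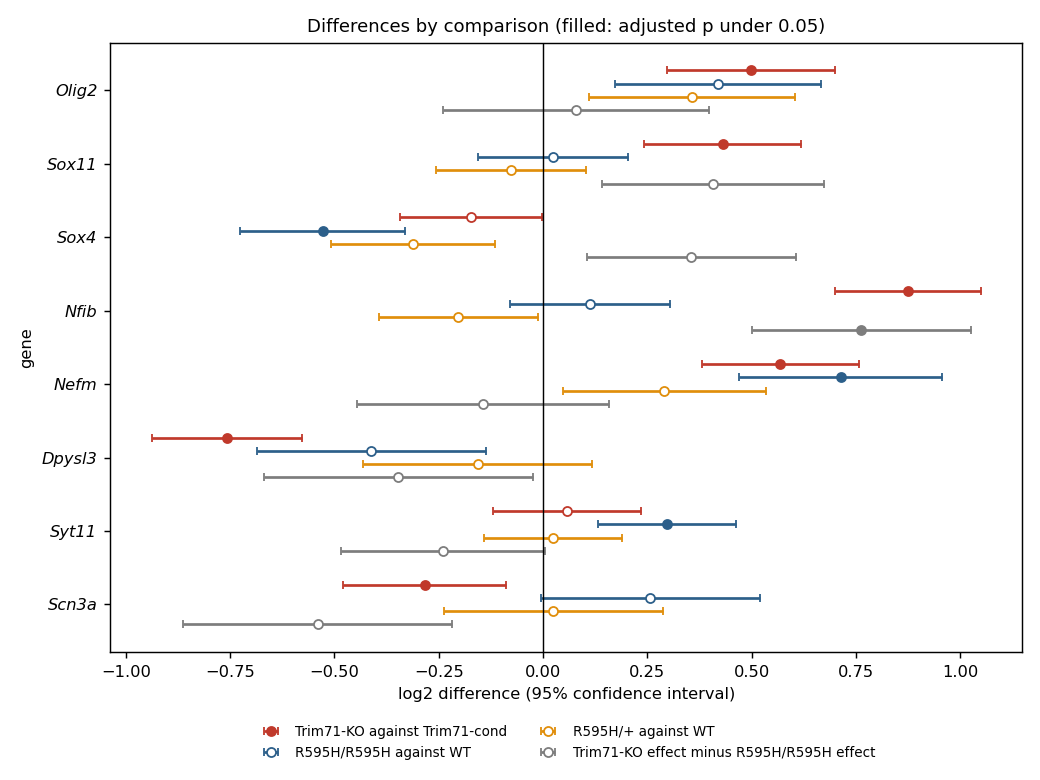
Difference in level (log2) of each gene in 3 comparisons and, in grey, the effect of Trim71-KO less that of R595H/R595H, with 95% confidence intervals from limma. Filled points have an adjusted p under 0.05: 6 genes for Trim71-KO, 3 for R595H/R595H, none for R595H/+, and Nfib alone for the difference of effects.

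Across the 5 groups, the order of the levels differed from gene to gene. Trim71-KO had the highest mean of Olig2, Sox11, Nfib and Nefm, and its range was apart from the next group for Olig2, Sox11 and Nfib but overlapped R595H/R595H for Nefm. Sox4 ran from WT at 4.60 through Trim71-cond (4.51), Trim71-KO (4.34) and R595H/+ (4.29) to R595H/R595H at 4.08. In that order WT overlapped Trim71-cond and Trim71-KO overlapped R595H/+, whereas Trim71-cond and Trim71-KO, and R595H/+ and R595H/R595H, did not overlap. Dpysl3 ran from Trim71-cond at 7.13 through WT (6.94), R595H/+ (6.78) and R595H/R595H (6.53) to Trim71-KO at 6.37, with ranges that overlapped between neighbours apart from WT and R595H/+. For Syt11 and Scn3a the ranges of all neighbours overlapped.

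The control groups themselves had different means for some of these genes, which was not tested. Trim71-cond exceeded WT in the means of Olig2 (5.49 against 5.16) and Nefm (3.79 against 3.49), whereas WT exceeded Trim71-cond in the mean of Nfib (6.62 against 6.37). Their ranges overlapped for Olig2 (5.31 to 5.72 and 4.85 to 5.40) and Nfib (6.19 to 6.62 and 6.52 to 6.70) but not for Nefm. R595H/R595H clones (5.58) were near Trim71-cond libraries (5.49) for Olig2, with overlapping ranges. For Nefm they were above Trim71-cond, with a mean of 4.20.

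The genes most like each member were those with the highest Pearson correlation over the 17 libraries or clones, after centring within each system, among 9329 genes. The points share libraries and the normalization, and the values are a description. Olig2 was most like Tbx3 (r = 0.92) and Zfp248 (0.92), and least like Npl (-0.89). Nfib was most like Platr25 (0.94) and Mob1b (0.93) and ran opposite to Keap1 (-0.94), the adaptor that targets NRF2 for degradation. Nefm was most like Dpp6 (0.93), which encodes a potassium channel auxiliary subunit, and Eda2r (0.92), and ran opposite to Ccdc91 (-0.94). Dpysl3 was most like Tenm3 (0.93), a teneurin of neuronal wiring, and Pgp (0.93), and ran opposite to Bag4 (-0.94). The highest values were Gigyf2 (0.92) and Unc13b (0.90) for Sox11, Iqgap2 (0.89) and Mcat (0.86) for Sox4, Capn10 and Abhd12 (both 0.87) for Syt11, and Oxnad1 (0.83) and Ufc1 (0.82) for Scn3a. The lowest were Ppp4c (-0.91), H2-Eb1 (-0.90), Usp16 (-0.84) and Stk24 (-0.84) for the same 4 genes. None of the 8 was among the 2 nearest genes of another.

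Of the nearest genes of the table on each side of the 8, 11 were tested, and 3 were called in Trim71-KO cells, where 18.6% of all tested genes were called. Mpdz, which flanks Nfib, fell by 0.34 ± 0.09 (SE; adjusted p = 0.0140) in Trim71-KO cells, and Zdhhc21 on its other side differed by 0.16 (adjusted p = 0.193). Rit1, a small GTPase gene beside Syt11, fell by 0.42 ± 0.11 (adjusted p = 0.00909), while Gon4l on the other side differed by -0.15 (adjusted p = 0.183). Dcp2, an mRNA decapping enzyme gene on the side of Dpysl3 toward higher coordinates, rose by 0.26 ± 0.05 (adjusted p = 0.00180). None of the tested neighbours was called in R595H/R595H clones.

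The wider neural lists, also chosen with earlier results of these data known, were mostly below the filter. Of 44 neural progenitor genes, 24 were in the table and 12 were tested, and in Trim71-KO cells 4 rose and 2 fell (median 0.14 against -0.0028 over all genes), where 9.24% of all tested genes were called higher and 9.37% lower. Msi2, an RNA-binding protein of neural progenitors, rose by 0.38 ± 0.07 (SE; adjusted p = 0.00140), Sox2, a factor of both pluripotent and neural stem cells, by 0.23 ± 0.06 (adjusted p = 0.00647), and Notch3, a receptor of the Notch pathway, by 0.34 ± 0.09 (adjusted p = 0.0113). Cdh2, which encodes N-cadherin, fell by 0.59 ± 0.08 (adjusted p = 1.98e-05). In R595H/R595H clones 2 rose and 0 fell (median 0.01 against -0.0023), where 2.19% were called higher and 1.23% lower, among them Meis2, a homeobox factor, by 0.45 ± 0.12 (SE; adjusted p = 0.0474). Of 35 genes of neuronal cytoskeleton and guidance, 11 were tested. Among them Tubb2a, a beta tubulin, rose by 0.28 ± 0.08 (adjusted p = 0.0188) and Map1b, a microtubule-associated protein, fell by 0.29 ± 0.07 (adjusted p = 0.00647) in Trim71-KO cells, and 0 were called in R595H/R595H clones. Of 39 synaptic genes, 20 were in the table and 3 passed the filter of the conditional libraries, with 0 called.

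In the families of the members, the SOX list had 4 tested genes, of which Sox11 and Sox2 rose in Trim71-KO and Sox4 fell in R595H/R595H. Over all tested genes, 9.24% were called higher and 9.37% lower in Trim71-KO, and 2.19% higher and 1.23% lower in R595H/R595H. Of 3 tested synaptotagmins, Syt11 was called in R595H/R595H and none was called in Trim71-KO; for Syt11 the difference between the 2 effects was -0.24 (adjusted p = 0.293). Of 16 OLIG and proneural factors, 4 were in the table and Olig1 and Olig2 were tested.

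**Figure D4:**
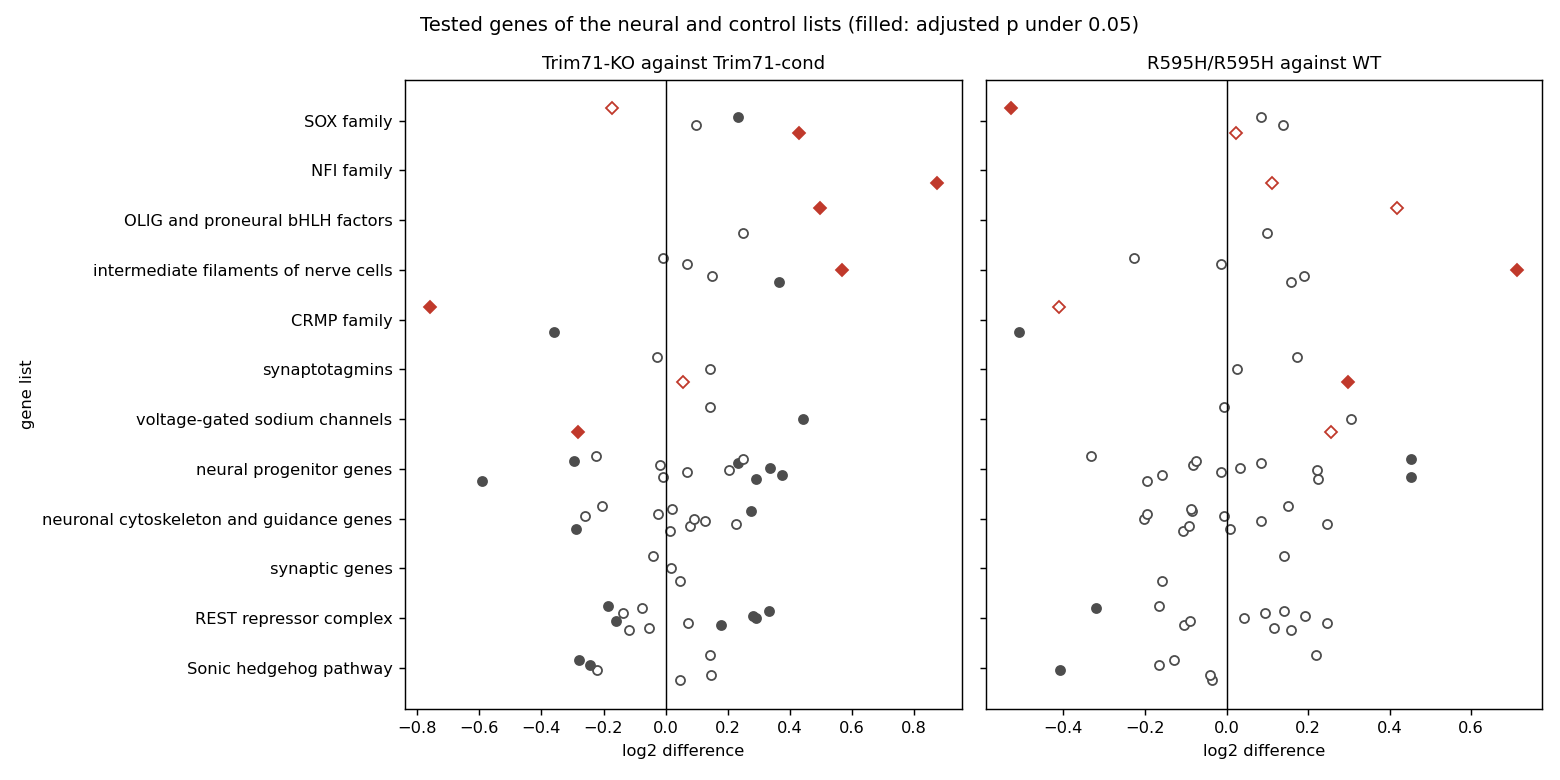
Difference in level (log2) of every tested gene of 12 lists in Trim71-KO against Trim71-cond (left) and R595H/R595H against WT (right). Diamonds are the 8 genes of interest, circles other genes of each list, filled where the adjusted p is under 0.05; in most lists called genes lie on both sides of 0 or are few, with 1 to 12 genes tested per list.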

How the data were processed

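Bulk poly(A) RNA-seq of 20 mouse embryonic stem cell libraries was read from 1 table of 13283 gene symbols. The deposited values are on a log scale taken as log2, from -0.65 to 18.0 with 1.58% below 0, already scaled between libraries by the authors. The submitters' processing notes name CASAVA 1.8, STAR and DESeq2. Build, annotation, counting and transformation were not given in the sources used here. Deposited numbers look like regularized logs, which shrink genes of low level, so their folds may be understated. Depth per library is unknown, and library medians lay between 5.15 and 5.20. Per the labels, RNA came from TRIZOL lysates and a TruSeq v2 kit, which does not mark strand.

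Genes with a mean of at least 3.32 (10 on a linear scale) were fitted with limma 3.58.1 in R 4.3.3 (lmFit, eBayes with trend and robust), and p-values were adjusted by Benjamini-Hochberg over all genes fitted. The 8 conditional libraries had a fit of their own (9580 genes), the 9 clones another (9587 genes, libraries of a clone averaged), and the difference of effects a joint fit of 17 units (9585 genes). SDs are over libraries or clones. The 8 genes, the 12 pathway lists and the markers were chosen with earlier results of these data known. Named beside the 8 were up to 4 called genes per list, the 2 most and 1 least correlated genes, and the nearest annotated genes, passing over predicted ones. One gene of these lists is not reported here. Positions are from GENCODE vM21 on GRCm38, where 13156 symbols were found once, and promoter windows from RefSeq GRCm38.p6.

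The labels give day 1 for code 1A, day 2 for 2B and day 3 for both 3A and 3B, so the day pairs 1A and 2B across groups but puts the 4 libraries of 3A and 3B together. Deviations of same-coded libraries correlated at -0.89 for 1A, -0.09 for 2B, -0.12 for 3A and 0.13 for 3B. Day and title disagree for part of the clonal libraries, and dates were taken from the titles. Alternatives changed the filter, scaling, moderation, replicate block, dates, covariate and single libraries or clones; leaving out code 1A and a block by day were added after the data were seen.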

Additional observations from a re-analysis of the deposited data

Results flagged for a closer look

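Nefm in Trim71-cond library 1A, at 3.55, stood apart from the other 3 libraries of its group, which lay between 3.84 and 3.88. Its gap to the nearest library was 0.883 of the whole range of the group, above Dixon's 95% critical value for 4 samples. Of the 8 genes in the 2 groups of 4 libraries, 16 sets were examined, and chance flags about 1 in 20 such sets. Over all tested genes the 1A libraries of the 2 groups deviated in opposed directions (correlation -0.89), which bears on this flag. Without code 1A in both groups the rise of Nefm was 0.44 (adjusted p = 0.00347).

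Nfib differed between the systems by the test of the difference itself, with a Trim71-KO effect larger than the R595H/R595H effect by 0.76 on the log2 scale (limma adjusted p = 0.00388). Over the alternatives that difference stayed between 0.70 and 0.84. Genotype, starting cells and handling cannot be told apart in it.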

How the results depend on the processing

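Over 708 values of the 40 differences of the 8 genes under the alternatives, 674 kept direction and side of the threshold, 21 lost and 6 gained a call, and 7 changed sign. Nfib, Nefm, Olig2, Sox11 and Dpysl3 stayed called in Trim71-KO against Trim71-cond, and Nefm in R595H/R595H against WT, in every alternative that tested them. With the replicate block 5 genes instead of 6 were called in Trim71-KO, Scn3a being lost (adjusted p = 0.0529), and no other call of the 8 changed. A replicate block by the labelled day, added after the data were seen, also left 5 (Scn3a adjusted p = 0.0517). Without code 1A in both groups 5 were called as well.

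In R595H/R595H against WT a minimum mean of 5 left 0 genes called, because Nefm, Sox4 and Syt11 are below it, and leaving out single clones gave 1 (without WT C7) to 4 genes (without R595H/R595H C20). R595H/R595H against R595H/+ gave 1 gene with all 12 libraries and a correlation within clones, and 0 to 1 without single clones (1 without R595H/R595H C20 or R595H/+ C21). The difference of effects gave 1 to 2 genes (2 without R595H/R595H C24, which added Scn3a).

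Signs changed where the difference was near 0. Sox11 in R595H/R595H against WT was -0.012 with equal library totals and -0.013 to 0.077 without single clones. In R595H/+ against WT, Scn3a ran from -0.054 to 0.12 without single clones, with -0.044 without WT C16, and Syt11 from -0.020 to 0.049. Olig2 was -0.066 in R595H/R595H against R595H/+ with the Y-linked covariate, and its difference of effects ran from -0.041 without WT C7 upward to 0.23. The cause was not tested.

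Over all genes, R595H/R595H against WT called 328 genes, but 157 with equal totals, 134 with the Y-linked covariate, 191 with libraries dated 5/2 only, and 67 to 541 without single clones. R595H/R595H against R595H/+ called 74, but 116 without the filter, 19 with equal totals, 213 with all libraries, 3 with the covariate, and 7 to 80 without single clones. The difference of effects called 136, but 83 with libraries dated 5/2 only and 40 to 225 without single units. Depth is unknown, and Syt11 in all groups and Nefm in WT lie near the filter.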

Other observations

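REST, a zinc finger repressor that holds neuronal genes silent outside the nervous system, and its partners were all above the filter (11 of 11). In Trim71-KO cells 4 rose and 2 fell, with a median of -0.05 against -0.0028 over all genes, of which 18.6% were called. Rest itself was not called there, with a difference of -0.075 ± 0.052 (SE; limma adjusted p = 0.326). Rcor1 and Rcor3, corepressors that bind REST, rose by 0.28 ± 0.08 (SE; limma adjusted p = 0.0125) and 0.33 ± 0.10 (adjusted p = 0.0286). Kdm1a, the histone demethylase of the complex, fell by 0.16 ± 0.05 (adjusted p = 0.0377). In R595H/R595H clones Rest was the 1 called of 11, where 3.42% of all tested genes were called. It fell by 0.32 ± 0.07 (adjusted p = 0.0266).

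Of 12 genes of the Sonic hedgehog pathway, which induces Olig2 in the ventral spinal cord, 6 were tested. In Trim71-KO cells 2 fell and 0 rose, where 9.37% of all tested genes were called lower. In R595H/R595H clones 1 fell and 0 rose, where 1.23% of all tested genes were called lower. Smo, the signal transducer, and Ptch1, the receptor, fell in Trim71-KO cells by 0.28 ± 0.08 (SE; adjusted p = 0.0159) and 0.24 ± 0.07 (adjusted p = 0.0189). Gli3, a transcription factor of the pathway, fell by 0.41 ± 0.09 (adjusted p = 0.0326) in R595H/R595H clones.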
